A study of Mus musculus with 5 samples.

Results

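Genes that mark plasmacytoid dendritic cells (pDCs) were followed across 5 arrays of bone marrow pro-B cells from 9-month-old mice. The 8 genes were *Siglech*, *Bst2*, *Cd209d*, *Tlr7*, *Tlr9*, *Ccr9*, *Spib* and *Ly6d*, taken by gene symbol. An earlier account of the same arrays had noted pDC genes on 1 of the *Mef2c*-deficient arrays, so the list was chosen by their levels on these 5 arrays. The levels and intervals below are a description, and no p-value is given for any of the 8 genes. Of the 8 genes, 6 had a probe set with their symbol, 1 each, among 17621 probe sets (17323 genes) with exactly 1 symbol. *Siglech* and *Ccr9* had none and were not analysed here.

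The *Mef2c*-deficient group was 2 arrays of Vav-Cre *Mef2c* fl/fl mice, and the control group was 3 arrays of mice of the same age. Vav-Cre is driven by the promoter of a gene used throughout the blood system, and the paper describes the deletion as haematopoietic. Deletion in pDCs was not measured here. Per the methods, a control could be floxed on both alleles or on 1 (*Mef2c* fl/fl or *Mef2c* fl/+), or carry Vav-Cre with 1 floxed allele, and which of these each control array was is not given. Some controls may thus carry 1 deleted allele. Pro-B cells were sorted by flow cytometry as B220+ IgM- CD43+ CD24+. *Mef2c* itself, the targeted gene, had deposited values of 7379 and 6219 on the *Mef2c*-deficient arrays, against 14006, 20854 and 17219.7 on the control arrays. Its log2 fold change was -1.34 (standard error 0.29, limma adjusted p = 0.092), it ranged from -1.48 to -1.20 with 1 array left out, and the groups did not overlap. It missed a deposited fold of 2 or an unadjusted p of 0.05 under 5 of 16 alternative settings. The sources used here do not place its probe set within or outside the deleted exon.

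pDCs are dendritic cells specialised in making type I interferon after sensing viral nucleic acids in endosomes. TLR7 senses single-stranded RNA and TLR9 senses unmethylated CpG DNA, and both signal through the adaptor MyD88. The identity of pDCs depends on the E protein TCF4, which the inhibitor ID2 opposes. Mouse pDCs carry B220, the surface marker also used to gate pro-B cells, and they share some genes with B-cell progenitors, among them *Spib* and *Ly6d*.

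The deposited values were made by robust multiarray averaging (RMA) and are not on a log scale. Their natural logarithms ran from 1.15 to 14.7, the range of a log2 signal, and 314 to 430 values per array were above 65535, the largest value of a 16-bit scanner. They therefore appear to be e raised to the log2 signal, which would make a deposited fold of 2 equal to 1.62-fold in signal. Folds below are of the deposited values unless named as signal. Each array held only 14663 to 18439 distinct values among 23835 probe sets, and exactly equal values on different arrays were common. The bacterial hybridisation controls, 15 probe sets, deviated from their 5-array mean by a median of 1.97 and 0.12 on the log2 scale on *Mef2c*-deficient replicates 1 and 2, against -0.43, -0.05 and -1.58 on control replicates 1, 2 and 3. Their part in the results below was not tested.

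Upstream windows of the genes are shown first, since the description below turns on genes with different profiles. RefSeq (GRCm38.p6) gave a window of 250 bases upstream of an annotated start for 6 of the 8 genes, and the 4 that belong to measured genes are printed 5′ to 3′ on the strand of the gene. For *Cd209d* and *Spib* the window follows a start inside the annotated gene span. Capitals mark matches to the motifs searched on both strands, an interferon response motif (GAAA and GAAA with 2 bases between), an ETS-IRF composite motif (GGAA and GAAA with 2 bases between), the octamer (ATGCAAAT) and the E box (CANNTG). The MEF2 box, searched by its consensus, matched in none of the 6 windows.
Bst2, chr8:71537473-71537722, minus strand: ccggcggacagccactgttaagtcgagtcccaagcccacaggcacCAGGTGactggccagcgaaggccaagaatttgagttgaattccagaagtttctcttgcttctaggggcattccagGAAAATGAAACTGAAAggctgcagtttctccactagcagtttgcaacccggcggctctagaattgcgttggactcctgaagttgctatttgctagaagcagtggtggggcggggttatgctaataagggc
Cd209d, chr8:3878500-3878749, minus strand: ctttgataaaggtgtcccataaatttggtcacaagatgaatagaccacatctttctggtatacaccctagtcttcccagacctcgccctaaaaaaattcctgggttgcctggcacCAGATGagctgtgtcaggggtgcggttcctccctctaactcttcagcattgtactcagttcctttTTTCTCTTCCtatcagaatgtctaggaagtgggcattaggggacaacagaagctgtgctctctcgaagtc
Tlr9, chr9:106222348-106222597, plus strand: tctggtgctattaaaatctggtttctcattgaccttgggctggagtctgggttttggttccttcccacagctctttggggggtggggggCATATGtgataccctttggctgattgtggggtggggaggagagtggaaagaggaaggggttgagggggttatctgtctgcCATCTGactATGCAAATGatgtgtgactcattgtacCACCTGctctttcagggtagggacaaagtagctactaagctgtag
Spib, chr7:44532072-44532321, minus strand: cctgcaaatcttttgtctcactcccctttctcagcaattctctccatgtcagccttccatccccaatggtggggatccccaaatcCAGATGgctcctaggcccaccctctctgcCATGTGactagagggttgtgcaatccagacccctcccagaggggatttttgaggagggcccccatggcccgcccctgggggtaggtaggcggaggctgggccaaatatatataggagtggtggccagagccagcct
*Bst2*, an interferon-induced gene, had 2 overlapping matches to the interferon response motif, which start 130 and 124 bases upstream of the start site. This motif was found in 2.98% of 32851 such windows in RefSeq. *Cd209d* had 1 match to the ETS-IRF composite motif 70 bases upstream (2.30% of windows), and *Tlr9* had 1 octamer 72 bases upstream (1.60% of windows) that overlaps an E box. E boxes, the motif read by TCF4, were present in all 6 windows, as in 66.2% of all windows, and the MEF2 box was present in 2.92% of all windows. A match is a stretch of letters and not a measured binding site.

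*Tlr7*, the RNA sensor, was far higher on 1 *Mef2c*-deficient array than on any other array. Its values were 119.6 and 2383 on *Mef2c*-deficient replicates 1 and 2, against 113, 221 and 164 on the control arrays. *Mef2c*-deficient replicate 2 was 10.8-fold above the next highest array, and on the other 4 arrays it lay near the middle of the range, at the 36.4th to 52.0th percentile. On replicate 2 *Tlr7* stood at the 84.5th percentile. Its log2 fold change between the groups was 1.73 (standard error 1.29, 95% interval -1.58 to 5.05), and the interval reflects the 19.9-fold difference between the *Mef2c*-deficient arrays.

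*Cd209d*, a C-type lectin of the DC-SIGN family, had the same high array. It had 705 and 12037 on *Mef2c*-deficient replicates 1 and 2, against 1447, 1058 and 2781 on the control arrays. Replicate 2 was the highest and replicate 1 the lowest of the 5 arrays, and they differed 17.1-fold. The log2 fold change was 0.85 (standard error 1.27, 95% interval -2.41 to 4.10). Of the 6 other *Cd209* family genes with a probe set, *Cd209c* also had its highest value on replicate 2 and its lowest on replicate 1, with 36.04 and 305, against 103, 98.0 and 159 on the control arrays. *Cd209a*, also named mouse DC-SIGN, had 181 and 243, against 99.1, 137 and 362, and *Cd209b*, *Cd209e*, *Cd209f* and *Cd209g* were highest on *Mef2c*-deficient replicate 1. Members of this family have similar sequences, and how far their probe sets detect each other's transcripts was not tested.

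*Bst2*, also called tetherin or PDCA-1, holds budding virions at the cell surface and is a target of antibodies used to label mouse pDCs. It had 2409.5 and 20717 on *Mef2c*-deficient replicates 1 and 2, against 7512, 6683 and 11632 on the control arrays. As for *Cd209d*, the control arrays lay between the *Mef2c*-deficient arrays, which differed 8.60-fold. The log2 fold change was -0.24 (standard error 0.95, 95% interval -2.69 to 2.20), close to 0 while both *Mef2c*-deficient arrays were outside the control range.

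*Tlr9*, the DNA sensor, did not share this profile. It had 1137 and 844 on *Mef2c*-deficient replicates 1 and 2, against 476, 844 and 1480.4 on the control arrays, and the value on *Mef2c*-deficient replicate 2 was exactly that on control replicate 2. Both *Mef2c*-deficient values were inside the control range. The log2 fold change was 0.22 (standard error 0.54, 95% interval -1.16 to 1.60).

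*Spib*, an ETS transcription factor used by pDCs and by B cells, was among the brightest probe sets on all 5 arrays, between the 98.2nd and 99.4th percentile. It had 144434 and 46519.5 on *Mef2c*-deficient replicates 1 and 2, against 62305.5, 63466 and 208186 on the control arrays. As deposited and with arrays centred on their medians, its lowest array was the one on which *Tlr7*, *Cd209d* and *Bst2* were highest, while control replicate 1 was lowest under the other 3 scalings (quantile, cyclic loess and housekeeping genes). Control replicate 3 was 3.31-fold above the mean of the other control arrays, and the log2 fold change was -0.19 (standard error 0.78, 95% interval -2.18 to 1.80).

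*Ly6d*, a GPI-anchored surface protein that marks B-biased lymphoid progenitors, had 110498 and 88872 on *Mef2c*-deficient replicates 1 and 2, against 27377, 16868 and 100028 on the control arrays. The groups overlapped only through control replicate 3, which was 4.52-fold above the mean of the other control arrays. The log2 fold change was 1.47 (standard error 0.80, 95% interval -0.59 to 3.52), and 2.21 without control replicate 3.

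**Figure D1:**
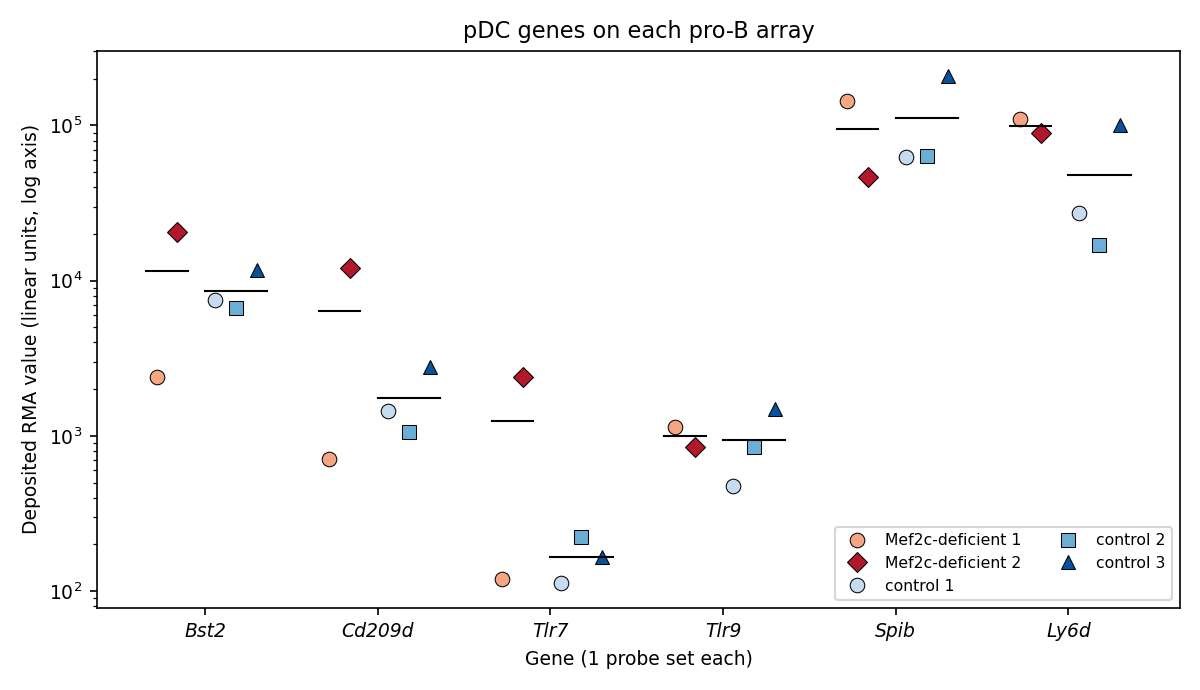
Deposited RMA value (vertical log axis) of the 6 measured pDC genes (horizontal axis), 1 point for each array, with *Mef2c*-deficient arrays left of control arrays and a line at the mean of each group. *Mef2c*-deficient replicate 2 (diamond) is the highest array for *Bst2*, *Cd209d* and *Tlr7* and, in these values as deposited, the lowest for *Spib*, where 3 of the 5 scalings put control replicate 1 lowest.

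A gene was called at a deposited fold of at least 2 with an unadjusted limma p of at most 0.05. Of all 17621 probe sets, 9.59% were called higher and 16.6% lower in *Mef2c*-deficient pro-B cells, 26.2% in all. Of the 6 pDC genes, 0 were called. The call uses the same levels by which the genes were chosen, so nothing is read from this count. The groups overlapped for all 6 genes, whereas they did not overlap in 54.1% of probe sets. No probe set had an adjusted p under 0.05 in limma (0 of 17621), while 32.1% had an unadjusted p under 0.05. Without *Mef2c*-deficient replicate 1 the adjusted p was under 0.05 for 1636 probe sets, and without *Mef2c*-deficient replicate 2 for 1940 of them. In both fits the *Mef2c*-deficient group was 1 array, so that the control arrays alone gave the spread and the lone array was assumed to vary like them. The 6 genes had a median log2 fold change of 0.53, against 0.04 for all probe sets. Single arrays decided these values. Without *Mef2c*-deficient replicate 1 the log2 fold change was 1.31 for *Bst2*, 2.89 for *Cd209d* and 3.89 for *Tlr7*, which restates the level on replicate 2 by which they were chosen. Without *Mef2c*-deficient replicate 2 it was -1.79, -1.20 and -0.42 for the same genes.

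The closest pairs among the 6 genes were *Tlr9* with *Spib* and *Bst2* with *Cd209d*. The difference between a pair of genes was measured as the root mean square difference of their log2 values over the 5 arrays, each gene centred on its own mean, so that 1 stands for a typical 2-fold discrepancy. *Tlr9* and *Spib* differed by 0.53, *Bst2* and *Cd209d* by 0.65 and *Cd209d* and *Tlr7* by 0.75. *Bst2* differed from *Tlr7* by 1.13, close to its difference of 1.20 from *Tlr9*. Between *Tlr7* and *Spib* the difference was 2.21, the largest of the 15 pairs. *Ly6d* was nearest to *Tlr9*, at 0.86, and to *Spib*, at 0.96. *Bst2*, *Cd209d* and *Tlr7* were highest on *Mef2c*-deficient replicate 2, as were 19.0% of all probe sets, and *Cd209d* and *Tlr7* were at least 2-fold above every other array there, as were 4.30% of all probe sets. *Bst2* and *Cd209d* were also lowest on *Mef2c*-deficient replicate 1, a combination found in 5.10% of probe sets. *Tlr9* and *Spib* were highest on control replicate 3, as were 25.7% of probe sets, and *Ly6d* was highest on *Mef2c*-deficient replicate 1. Under the quantile, cyclic loess and housekeeping scalings *Tlr9* was highest on *Mef2c*-deficient replicate 1 instead, as was *Spib* under the last of these and cyclic loess.

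The high value on *Mef2c*-deficient replicate 2 did not depend on how the arrays were scaled against each other. Relative to the mean of the other 4 arrays, it was higher by 1.76 to 2.62 on the log2 scale for *Bst2*, by 3.19 to 3.91 for *Cd209d* and by 3.93 to 4.62 for *Tlr7* over 5 scalings. This array was the highest for each of these genes under all 5. On the scale read as signal, it was 2.33-fold, 4.64-fold and 6.83-fold above the other 4 arrays for *Bst2*, *Cd209d* and *Tlr7*. For *Tlr9* the difference was between -0.10 and 0.48 and changed sign with the scaling, for *Spib* it was between -1.17 and -0.45, and for *Ly6d* it was between 0.90 and 1.67.

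**Figure D2:**
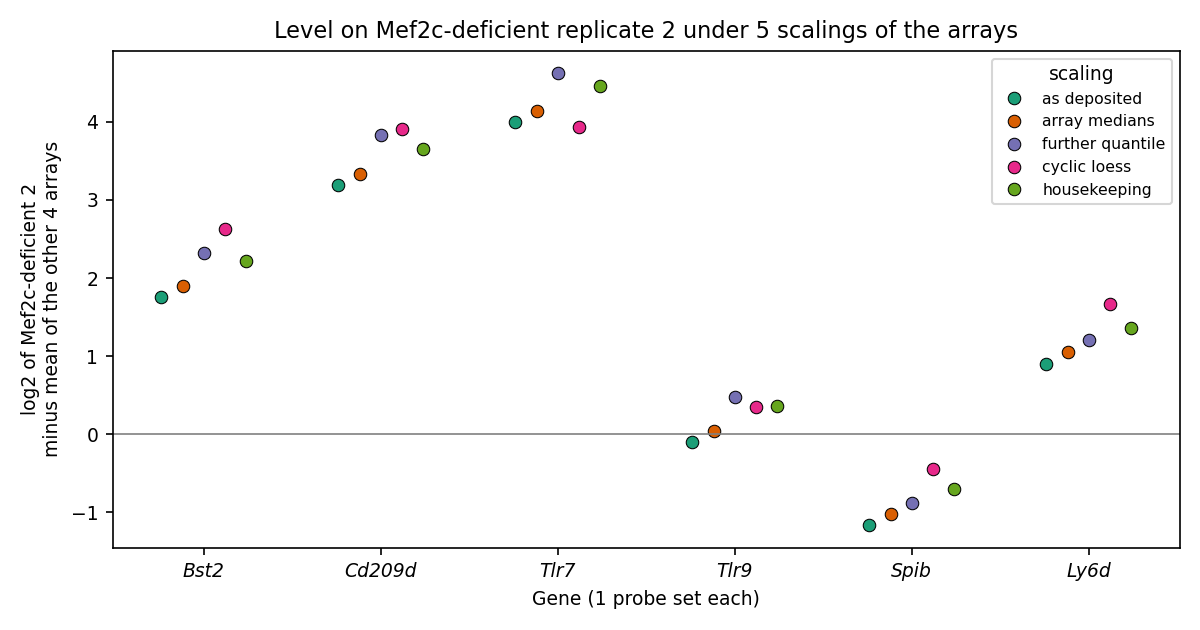
Log2 value on *Mef2c*-deficient replicate 2 minus the mean of the other 4 arrays (vertical axis) for the 6 pDC genes (horizontal axis), 1 point for each of 5 scalings of the arrays. *Bst2*, *Cd209d* and *Tlr7* lie at 1.76 or above under each scaling, and *Spib* lies below 0.

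The probe sets with the most similar profiles were taken from 11659 candidates that exceeded the array median on at least 1 array. This list had been planned for *Siglech* and was made for the 6 measured genes after their values were seen. Nearest to *Bst2* were *Cd209c* (0.06), *Dguok* (0.09) and *Gabarap* (0.13). Nearest to *Cd209d* were *Lmo2* (0.19), *Pcbp4* (0.24) and *Rcsd1* (0.25), with *Cd7* among the 10 nearest (0.29). Nearest to *Tlr7* were *Cadm1* (0.17), *Ctla2a* (0.22) and *Nudt7* (0.24), followed within the 10 nearest by *Bcl11a* (0.29), a transcription factor of lymphoid and pDC development, and *Cd3g* (0.34), a chain of the T-cell receptor complex. Nearest to *Tlr9* were *Zup1* (0.14) and *Acsf2* (0.15), and nearest to *Spib* were *Zfp433* (0.16) and *Napepld* (0.17). *Ly6d* had less similar neighbours, *Prg3* (0.36) and *Rasgrp1* (0.37). These are likenesses over 5 arrays and carry no test.

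Of 38 probe sets of 37 genes with a known role in pDCs, in lists of transcription factors, of the handling and signalling of TLR7 and TLR9 and of other pDC genes, 2 were called higher and 4 lower in *Mef2c*-deficient pro-B cells (15.8%), against 26.2% of all probe sets. Their median log2 fold change was -0.18, against 0.04 for all probe sets. This count moved with single arrays, to 3 without control replicate 3, 12 without *Mef2c*-deficient replicate 1 and 11 without *Mef2c*-deficient replicate 2.

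Of 10 pDC transcription factors, 2 were called higher and 0 lower, against 9.59% of all probe sets called higher. *Tcf4*, the E protein on which pDC identity depends, had 1000.7 and 249 on *Mef2c*-deficient replicates 1 and 2, against 127, 142 and 49.6 on the control arrays. Its log2 fold change was 2.37 (standard error 0.78, limma adjusted p = 0.13), and its highest array was not the array with high *Tlr7*. *Id2*, which encodes the inhibitor of E proteins, was below the array median throughout, with 63.0 and 48.1 on the *Mef2c*-deficient arrays, against 30.1, 22.9 and 30.1 on the control arrays (log2 fold change 1.003, standard error 0.28, limma adjusted p = 0.11). *Tcf4* was below the array median on the control arrays, at the 29.0th to 44.9th percentile. The groups did not overlap for 4 of the 10 factors, against 54.1% of all probe sets. These were *Tcf4* and *Id2*, higher on the *Mef2c*-deficient arrays, and *Ikzf1* and *Zeb2*, lower there. *Tcf4* lost its call without control replicate 1 or 3 or *Mef2c*-deficient replicate 1, and *Id2* without control replicate 2 or *Mef2c*-deficient replicate 1. Over the 16 alternatives *Tcf4* was called in 10 and *Id2*, whose fold was at the threshold, in 6, not among them quantile normalization, cyclic loess, median centring, the replicate block, array weights, signal or the pseudocount. *Bcl11a* had 570.1 and 6828 on *Mef2c*-deficient replicates 1 and 2, against 392, 702 and 759.9 on the control arrays, and was not called (1.73, standard error 1.10). *Ikzf1*, which encodes Ikaros, ran the opposite way on replicate 2, with 82722 and 7843 on the *Mef2c*-deficient arrays, against 82818, 95232.5 and 114769 on the control arrays (-1.93, standard error 1.01, not called). *Zeb2* had a log2 fold change of -1.29 (standard error 0.53, not called). *Irf8*, a transcription factor of dendritic cells chosen after its values were seen, had the profile of *Bst2*, with 6640.1 and 52822 on *Mef2c*-deficient replicates 1 and 2, against 26855, 27835 and 37323.5 on the control arrays.

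Of 16 genes that handle TLR7 and TLR9 or signal from them, 4 were called lower (25%), against 16.6% of all probe sets. These 4 were among the brighter 8810 probe sets, those with a mean log2 value above the median, of which 2618 were called lower. The groups did not overlap for 6 of the 16, the called 4 among them, against 54.1% of all probe sets. Of 10 housekeeping probe sets, set beside them, 5 were called lower, with a median log2 fold change of -1.09. *Myd88*, the shared adaptor, had 619 and 468 on *Mef2c*-deficient replicates 1 and 2, against 1459, 2076 and 2104 on the control arrays (log2 fold change -1.78, standard error 0.31, limma adjusted p = 0.0904). *Irak1*, a kinase recruited by MyD88, had 2512 and 734 on the *Mef2c*-deficient arrays, against 4307, 5416 and 6287 on the control arrays (-1.96, standard error 0.58, limma adjusted p = 0.11). *Slc15a4*, a lysosomal amino acid transporter that TLR7 and TLR9 signalling in pDCs requires, had 1125 and 672 on the *Mef2c*-deficient arrays, against 2647, 3196 and 4403 on the control arrays (-1.94, standard error 0.38, limma adjusted p = 0.0905). *Lgmn*, a lysosomal protease, had 275 and 97.8 on the *Mef2c*-deficient arrays, against 663, 457 and 2056 on the control arrays (-2.38, standard error 0.81, limma adjusted p = 0.13). *Myd88* and *Slc15a4* were called with any 1 array left out, *Irak1* was not without control replicate 2 or 3, and *Lgmn* was not unless the array left out was control replicate 2. *Irak1* also lost its call under quantile normalization, cyclic loess, housekeeping centring and the replicate block. Among all alternatives, *Myd88* lost its call only with housekeeping centring. The log2 fold change of *Slc15a4* was -1.08 and that of *Myd88* -1.13 after cyclic loess. The other 12 were not called, with log2 fold changes from -1.30 for *Cnpy3*, a chaperone of TLRs, to 0.997 for *Plscr1*. *Unc93b1*, which carries both receptors to the endosome and was chosen after its values were seen, had 6291 and 14312 on the *Mef2c*-deficient arrays, against 3578, 5638 and 13217 on the control arrays. The median log2 fold change of the 16 was -0.55, against 0.04 for all probe sets and -0.85 for the brighter 8810.

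**Figure D3:**
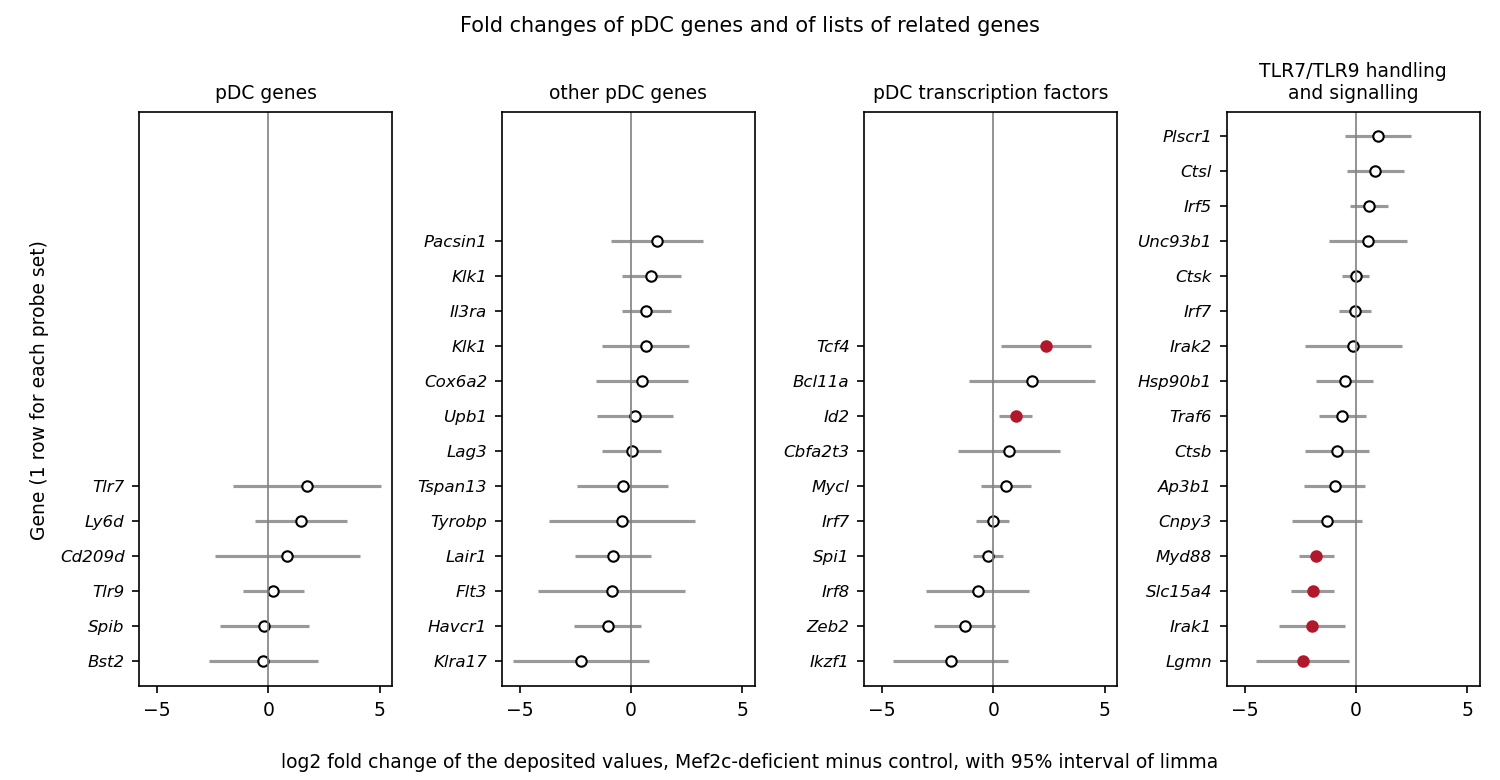
Log2 fold change, *Mef2c*-deficient over control (horizontal axis), with the 95% interval of limma, for the 6 pDC genes and the 3 lists of related genes (1 row for each probe set). Filled points passed the call, 2 higher among transcription factors and 4 lower among TLR7 and TLR9 genes, and open points did not.

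Of 13 probe sets of 12 other pDC genes, 0 were called, against 26.2% of all probe sets. On *Mef2c*-deficient replicate 2, 6 of the 13 exceeded the mean of the other 4 arrays at least 2-fold, against 9.52% of all probe sets, and 7 of the 13 were lowest on *Mef2c*-deficient replicate 1, against 22.5% of all probe sets. Only 3 of the 13, *Tyrobp*, *Cox6a2* and 1 probe set of *Klk1*, had both their highest value on replicate 2 and their lowest on replicate 1, as *Bst2* and *Cd209d* did, and 6 of the 13 were highest on control replicate 3. *Pacsin1*, an adaptor of membrane trafficking, had 224 and 1069.5 on *Mef2c*-deficient replicates 1 and 2, against 142, 189 and 375 on the control arrays. *Klk1*, a kallikrein protease, had 2 probe sets with 605 and 3319 and with 1800.3 and 4945 on the *Mef2c*-deficient arrays, against 771, 872 and 1081 and against 1702, 1199 and 1909.9 on the control arrays. Both probe sets of *Klk1* thus had their highest value on replicate 2. *Klra17* (Ly49Q), an inhibitory receptor of pDCs, had 56.4 and 858 on the *Mef2c*-deficient arrays, against 858, 858 and 1538 on the control arrays, so that only replicate 1 stood apart. *Havcr1* (TIM-1) had 106 and 385 on the *Mef2c*-deficient arrays, against 419.8, 450.4 and 385 on the control arrays. *Tyrobp*, which encodes the adaptor DAP12 through which Siglec-H signals and which was chosen after its values were seen, had 18644 and 348669 on the *Mef2c*-deficient arrays, against 109762, 151482 and 69596 on the control arrays. *Tyrobp* is also used by myeloid and NK cells.

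The type I interferon response, to which *Bst2* belongs, was called in 0 of 10 genes, against 26.2% of all probe sets. Its median log2 fold change was -0.44, against 0.04 for all probe sets. *Oasl2*, a member of the oligoadenylate synthetase family, had the lowest log2 fold change, with 35.3 and 545 on *Mef2c*-deficient replicates 1 and 2, against 238, 103 and 432 on the control arrays. *Rsad2*, which encodes the antiviral enzyme viperin, had the highest, with 188 and 91.9 on the *Mef2c*-deficient arrays, against 91.9, 71.2 and 99.1 on the control arrays. On *Mef2c*-deficient replicate 2, 4 of the 10 exceeded the mean of the other 4 arrays at least 2-fold, against 9.52% of all probe sets. Control replicate 3 held the highest value of 6 of the 10, among them *Ifit1*, *Ifit2*, *Ifit3* and *Mx1*.

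Markers of other blood cells also stood apart on *Mef2c*-deficient replicate 2. In RNA from sorted populations, more cells of a type and more RNA per cell cannot be told apart. Of 11 measured markers of T and NK cells, 8 exceeded the mean of the other 4 arrays at least 2-fold there, the median of the 11 being 7.80-fold, and their summed value was 8076 and 64991 on *Mef2c*-deficient replicates 1 and 2, against 12664 to 19567 on the control arrays. *Cd3e*, an invariant chain of the T-cell receptor complex, had 366 and 13843 on the *Mef2c*-deficient arrays, against 387, 232 and 387 on the control arrays. The same count was 4 of 11 for conventional dendritic cells, 3 of 8 for neutrophils, 4 of 9 for monocytes and macrophages, 2 of 4 for erythroid cells, 1 of 5 for plasma cells and 1 of 12 for pro-B cells. The median fold of replicate 2 over the other 4 arrays was 2.51 for the 6 pDC genes, 1.80 for the other pDC genes, 1.41 for conventional dendritic cells, 1.82 for neutrophils, 1.32 for monocytes and macrophages, 2.49 for erythroid cells, 0.84 for plasma cells and 0.72 for pro-B cells, against 0.97 for all probe sets. The 2.51 of the 6 pDC genes restates the levels by which they were chosen, so nothing is read from its rank among the lists. No listed marker had a value of 0, as RMA gives none. The part of these cell types in the levels of the pDC genes was not tested.

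Summed values of the conventional dendritic cell markers were 117978 and 351368 on *Mef2c*-deficient replicates 1 and 2, against 72174 to 214639 on the control arrays. Those of neutrophil markers were 2.38e+06 and 5.23e+06, against 2.12e+06 to 4.56e+06, and those of monocyte and macrophage markers were 120810 and 614487, against 220961 to 350233. Those of erythroid markers were 1502 and 4625, against 739 to 872, and those of plasma cell markers were 175624 and 189343, against 192077 to 323604. *Mef2c*-deficient replicate 2 exceeded every control array in these sums, except for plasma cells, but the sums rested on their brightest genes. *Cd74* made up 297866 of the dendritic cell sum and *Lyz2* 604784 of the monocyte and macrophage sum on that array. Other markers of these lists were low there, such as *Cd14*, chosen after its values were seen, with 224 and 147 on *Mef2c*-deficient replicates 1 and 2, against 1513, 5901 and 48.3 on the control arrays. The sum of pro-B markers ran the other way, with 1.25e+06 and 676272 on *Mef2c*-deficient replicates 1 and 2, against 948093 to 1.58e+06 on the control arrays. This sum also rested on its brightest genes. *Cd24a* made up 683783 and 152861 of it on *Mef2c*-deficient replicates 1 and 2, most of the difference between these arrays. Of 11 markers of T and NK cells, *Cd8a* and *Ncr1* were called higher in *Mef2c*-deficient pro-B cells and *Gzma* lower. *C1qa* (1 of 9 for monocytes and macrophages) and *Slc4a1* (1 of 4 for erythroid cells) were called higher. *Ccr7* (1 of 11 for conventional dendritic cells) and *Sdc1* (1 of 5 for plasma cells) were called lower, and 0 of 8 for neutrophils were called. Of all probe sets, 9.59% were called higher and 16.6% lower. *Cd8a* and *Ncr1* were below the array median on all 5 arrays.

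Of 12 measured markers of pro-B cells 0 were called, against 26.2% of all probe sets, and their median log2 fold change was -0.86. The median was 0.04 for all probe sets and -0.85 for the brighter 8810. The groups did not overlap for 3 of the 12, against 54.1% of all probe sets. These were *Igll1*, *Spn*, which encodes the sort marker CD43, and *Il7r*, each lower on both *Mef2c*-deficient arrays. *Cd79a*, a signalling chain of the B-cell receptor chosen after its values were seen, had 231011 and 250654 on *Mef2c*-deficient replicates 1 and 2, against 167188, 153021 and 257531 on the control arrays. *Cd24a*, a marker of the sort, also chosen after its values were seen, had 683783 and 152861 on the *Mef2c*-deficient arrays, against 564591, 528504 and 532013 on the control arrays. *Ptprc*, of whose products the sort marker B220 is 1 form, was also chosen after its values were seen and ran the other way on replicate 2. Its values were 2245 and 9744 on the *Mef2c*-deficient arrays, against 2446, 2111 and 1805 on the control arrays. Whether this probe set detects the B220 form alone was not tested. *Ebf1*, a transcription factor of early B cells, had 29295 and 3026 on the *Mef2c*-deficient arrays, against 31733, 29295 and 35416 on the control arrays. *Blnk*, an adaptor of the pre-B-cell receptor, had 25010 and 2661 on the *Mef2c*-deficient arrays, against 32326, 18899 and 41783 on the control arrays. Both were lowest on *Mef2c*-deficient replicate 2, as was *Cd24a*. *Dntt*, which encodes the polymerase TdT, had 3050.2 and 35539 on the *Mef2c*-deficient arrays, against 33157, 8488 and 127098 on the control arrays. *Igll1*, a chain of the surrogate light chain, had 25064 and 26275 on the *Mef2c*-deficient arrays, against 73241, 32084.5 and 97663.5 on the control arrays. Control replicate 3 held the highest value of 10 of the 12 pro-B markers, among them *Rag1*, chosen after its values were seen, with 31149.9 and 21023 on the *Mef2c*-deficient arrays, against 19797, 13317 and 140899 on the control arrays. Control replicate 3 was thus high both for these markers and for *Spib*, *Tlr9* and, among controls, *Ly6d* in the values as deposited.

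**Figure D4:**
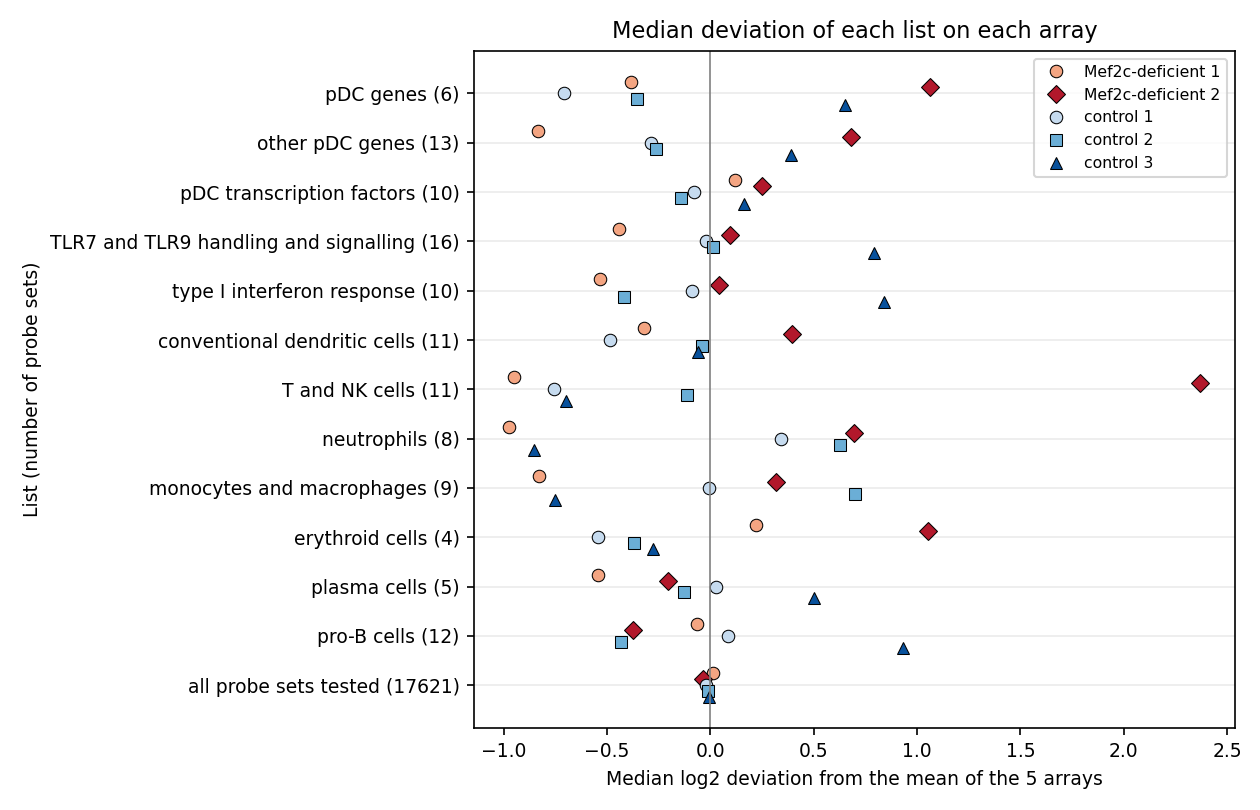
Median log2 deviation of each list of probe sets from the mean of the 5 arrays (horizontal axis), 1 point for each array, for the 6 measured pDC genes, related lists and markers of other blood cells (vertical axis). *Mef2c*-deficient replicate 2 (diamond) lies at 1.06 for the pDC genes and at 2.37 for T and NK cells, and at -0.37 for pro-B cells. The position of the pDC genes restates the levels by which they were chosen.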

How the data were processed

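RNA of sorted pro-B cells was hybridised to 5 Affymetrix Mouse Genome arrays (3 control, 2 *Mef2c*-deficient). The authors made the deposited intensity values by RMA and used limma, per the labels. The values are not on a log scale, no detection calls were used here, and the number of arrays limits the precision. Of 23835 probe sets, 26 Affymetrix controls, 516 with several gene symbols and 5672 not in the annotation table used were left out, leaving 17621. Log2 values were fitted by group with limma 3.58.1 (lmFit and eBayes, R 4.3.3), checked on simulated data, with Benjamini-Hochberg adjustment over all 17621 probe sets. p-values measure the spread between arrays, which the methods call independent samples. Figures were drawn with matplotlib 3.10.9.

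The genes and lists were chosen with earlier results of these data known. Every measured pDC gene was named, and in other lists the called genes and up to 4 with the largest absolute log2 fold change. Others are named as chosen after their values were seen. Alternatives left out each array, added the replicate number as a block, rescaled the arrays (quantile, cyclic loess, medians, 9 housekeeping genes), used array weights, a fold of 2 in signal, a pseudocount of 50, brighter probe sets, 1 probe set per gene, or an intensity trend. Coordinates and upstream sequences are from RefSeq, GRCm38.p6.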

Additional observations from a re-analysis of the deposited data

How the results depend on the processing

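Of all probe sets, 4617 were called. This was 2931 to 5550 with 1 array left out, 2681 with the replicate block, 2954 after quantile normalization (53.4% of them higher, against 36.6% as deposited), 2651 after cyclic loess (47.3%), 8110 with housekeeping centring (93.1%), which moved the median over all probe sets to 0.87 from 0.04 on the log2 scale, 2616 at a fold of 2 in signal (29.1%) and 2896 of the brighter 8810 probe sets (9.60%). With 1 array left out, the lowest counts came without control replicate 1 (2931) or 3 (3024). With housekeeping centring 3662 probe sets had an adjusted p under 0.05. Counted as a description, the pDC genes called numbered 0 to 2 with 1 array left out and 1 (*Ly6d*) with the replicate block, cyclic loess or housekeeping centring. The related pDC genes called numbered 3 to 12 with 1 array left out, 3 with the replicate block or array weights and 11 with housekeeping centring. *Slc15a4* was called under all 16 alternatives, *Myd88* under 15, *Tcf4*, *Irak1* and *Lgmn* under 10 each and *Id2* under 6. *Mef2c* kept its direction, but was not called at -0.42 (quantile), -0.30 (cyclic loess), -0.51 (housekeeping), -1.25 (array weights) or -0.93 (signal). The log2 fold change changed sign for *Bst2* at 0.61 (quantile), 0.81 (cyclic loess) and 0.58 (housekeeping), and for *Spib* at 0.38 (replicate block), 0.19 (quantile), 0.63 (cyclic loess), 0.63 (housekeeping) and 0.23 (array weights). With 1 array left out it ran from -1.79 to 1.31 for *Bst2*, -1.20 to 2.89 for *Cd209d*, -0.42 to 3.89 for *Tlr7*, -0.19 to 0.63 for *Tlr9*, -1.01 to 0.62 for *Spib* and 0.92 to 2.21 for *Ly6d*. Sign changes came without control replicate 1 for *Tlr9* (-0.19), without control replicate 3 (0.38) or *Mef2c*-deficient replicate 2 (0.62) for *Spib*, without *Mef2c*-deficient replicate 1 for *Bst2* (1.31), and without *Mef2c*-deficient replicate 2 for *Cd209d* (-1.20) and *Tlr7* (-0.42). The cause was not tested. By the labels, arrays of the same replicate number shared only the number. The differences of replicates 1 and 2 of each group correlated at r = 0.07 across probe sets. Whether such arrays shared a batch was not tested. The block drops control replicate 3, which has no partner. *Tlr7* was not among the brighter probe sets.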
